A study of Mus musculus with 6 samples.

Results

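The 10 genes described here encode TNF receptor-associated factors (Traf1, Traf2, Traf3 and Traf6), the cellular inhibitors of apoptosis (Birc2 and Birc3), the NF-κB-inducing kinase NIK (Map3k14) and 3 IκB kinases (Chuk, Ikbkb and Ikbke). They were chosen by name as the adaptors and kinases that lie between receptors and NF-κB. A p65 peak was assigned to one of them when, among all curated RefSeq transcription start sites of mm10, the site nearest to the middle of the peak was that gene's. By this rule 31 peaks belonged to the 10 genes: 11 of 8525 in the list of adult mice, 7 of 4169 in that of aged mice given control IgG (Aged/Control IgG, here aged control) and 13 of 6014 in that of aged mice given antibodies to the cytokines IL-17A and IL-17F (Aged/Anti-IL-17A/F, here aged blocked). They fell into 14 separate binding sites.

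TRAF proteins are adaptors that bind the cytoplasmic side of TNF receptor family members and related receptors. TRAF2, TRAF3 and the cIAP ubiquitin ligases together mark NIK for degradation, so that NIK accumulates and drives the non-canonical NF-κB pathway once a receptor takes TRAF3 away from it. TRAF6 serves receptors of the interleukin-1, Toll-like and interleukin-17 families, and the IκB kinases release NF-κB dimers such as those that contain p65. Several of these genes, among them Birc3, Traf1 and Traf2, are known NF-κB targets, which makes them part of feedback loops. In skin, the pathway takes part in both barrier upkeep and defence.

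The experiment was chromatin immunoprecipitation with sequencing (ChIP–seq), in which an antibody to p65, here on trypsin-separated epidermal cells, recovers the DNA that p65 occupies. All mice were of the C57bl/6J strain. Adult mice, 17 to 25 weeks old, had no treatment, and aged mice received intraperitoneal injections of control IgG or of blocking antibodies to IL-17A and IL-17F during 12 weeks, starting at 73 weeks of age. The reads of 4 mice per condition were merged before peaks were called, so that each condition has 1 list, no spread between mice can be given and no test between conditions was possible. In a pool of cells, a site occupied in fewer cells and a site occupied less in each cell cannot be told apart. Differences below are differences between 3 pools, each list has its own number of peaks, and the reads behind a single peak are unknown.

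One point about the labels comes before the results. All 8525 peaks of the adult list carry names that begin as those of the aged blocked list do ("Treated"), although the 2 lists share 0 identical rows. The assignment given by the sample records was kept, and the study's own annotation of adult peaks, as far as it could be read, lists peaks of this same list under these names. That annotation is therefore no independent check of the assignment. If these lists were exchanged, every difference between adult and aged blocked would turn around, whereas aged control would still stand against the same pair of lists. Peaks cannot check the cell type. A nearest peak was present at 5, 3 and 4 of 6 keratinocyte genes in adult, aged control and aged blocked, and at 1 of 6 genes of other skin cells (Pecam1, at percentiles 99.8, 98.5 and 99.7, above every keratinocyte gene listed). Nothing about cell types is read from these counts.

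p65 lay nearest to 7 of the 10 genes in adult, 6 in aged control and 8 in aged blocked, where 23.1%, 12.9% and 17.4% of the 20923 protein-coding genes had such a peak in the same lists. Traf2, Traf3, Birc2, Birc3, Map3k14 and Ikbke were bound in all 3 lists. Traf6 was bound in adult alone, Traf1 and Ikbkb in aged blocked alone, and Chuk in none. The lists differed in 3 genes that each rested on a single weak peak. Map3k14 in aged blocked also rested on a single peak, at percentile 30.6. With lists cut to equal numbers of peaks it was lost there while Traf1 and Ikbkb stayed, and Traf6 was lost in adult. The Map3k14 peak missed this cut narrowly, at rank 4175 where 4169 peaks were kept. Ranked by q-value in place of fold enrichment, it stood above Ikbkb and Traf1 in aged blocked (percentiles 35.1, 25.9 and 24.2).

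The strength of a peak is given as the authors' fold enrichment, the ratio of the signal at the summit to a local background, and as its percentile within its list, where 100 is the strongest. The strongest peak of each bound gene had a median percentile of 94.7 in adult and 89.1 in aged control, against 58.3 and 56.5 over all bound protein-coding genes. In aged blocked the median was 63.5, against 57.1, with Traf1 and Ikbkb, at percentiles 33.6 and 32.9, among the bound genes there. Among all member peaks, 4 of 11, 3 of 7 and 4 of 13 were in the strongest decile of adult, aged control and aged blocked. These were the Traf2 intron 4 site, Traf3, Ikbke and, outside aged control, Birc3.

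**Figure D1:**
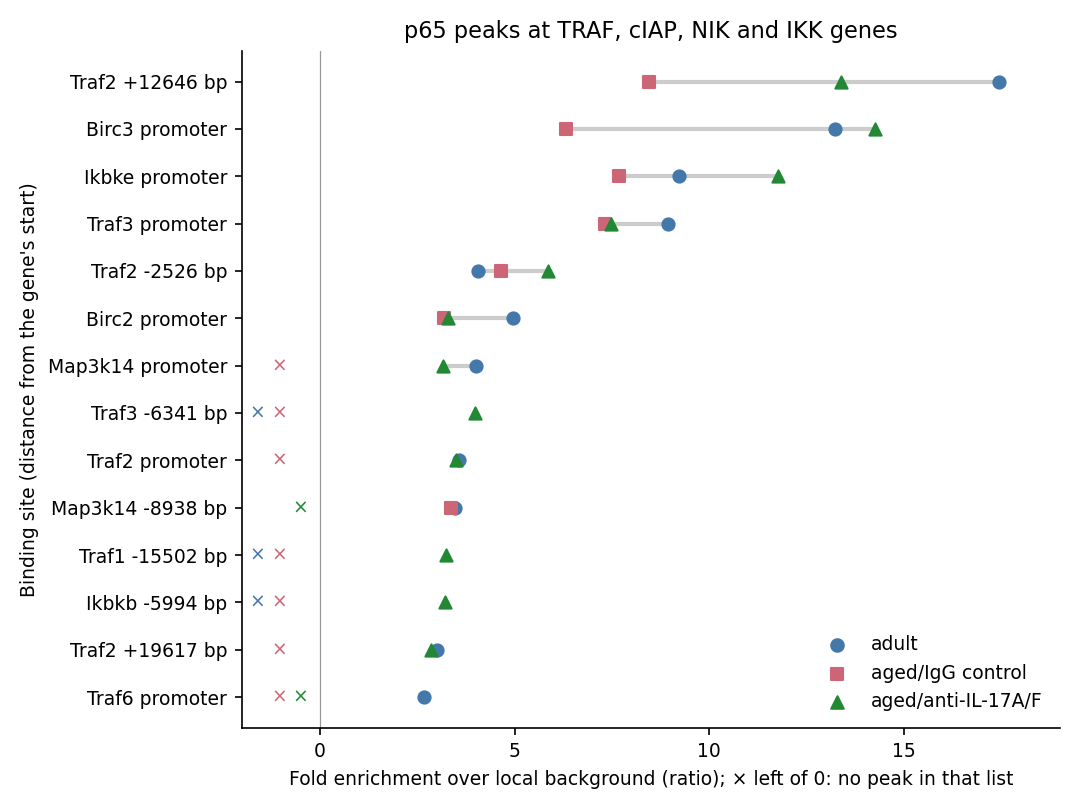
Fold enrichment (horizontal axis, ratio to local background) of the strongest peak at each of the 14 binding sites (vertical axis) in adult (circles), aged control (squares) and aged blocked (triangles); a cross left of 0 marks a list with no peak at the site, and grey lines join the lowest and highest value. Aged control has the lowest value at 5 of the 6 sites present in all lists, with the widest gaps at Traf2 +12646 bp (8.46 against 17.4 and 13.4) and Birc3 (6.32 against 13.2 and 14.3).

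Traf2 had the most peaks of the 10 genes in each list, and the strongest peak in adult and aged control, while Birc3 had the strongest in aged blocked. Its product is the adaptor that recruits the cIAPs to TNF receptors. It had 4 peaks in adult, 2 in aged control and 4 in aged blocked. Among all bound protein-coding genes, 5.29% in adult and 3.48% in aged blocked had 4 or more peaks. In aged control 2.22% did, but Traf2 was not among them there. The median number of peaks per bound gene was 1 in each list.

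The strongest site of Traf2 was in intron 4 of 10, at +12646 bp from the start in adult (adult peak chr2:25533680-25534908, mm10, gene on the minus strand). Its fold enrichment was 17.4 in adult, 8.46 in aged control and 13.4 in aged blocked. It thus ranked 24 of 8525, 213 of 4169 and 58 of 6014, in the strongest decile of each list. Between adult and aged control the ratio was 0.485, lower than that of all but 2.62% of the 3879 adult peaks that overlap a peak of aged control. The median ratio was 0.813 over all these peaks and 0.704 over the strongest adult decile, within which the Traf2 ratio stood at percentile 7.21.

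The sequence of this site is shown because it holds 2 copies of the same decamer. The capitals mark matches to the NF-κB consensus decamer, searched on both strands, and the forward strand of mm10 is printed (chr2:25534306-25534408).
Traf2 intron 4: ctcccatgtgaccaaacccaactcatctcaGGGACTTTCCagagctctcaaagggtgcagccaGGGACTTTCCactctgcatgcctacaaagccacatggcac
The copies of GGGACTTTCC began 33 bp apart, at 70 and 37 bp to the left of the adult summit. The summits of the 3 lists were within 23 bp of each other.

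A further Traf2 site was upstream of the start by about 2.5 kb (aged blocked peak chr2:25548996-25549937, intergenic). The fold enrichment there was 4.05 in adult, 4.67 in aged control and 5.85 in aged blocked. It was the only one of the 6 sites present in all lists with its lowest value in adult. At 1.15 its ratio of aged control to adult stood at percentile 90.9 of all peaks shared by these lists. It is shown because its matches lie on both strands, and the second run of capitals is the reverse complement of GGGACACCCC (chr2:25549607-25549760).
Traf2 upstream: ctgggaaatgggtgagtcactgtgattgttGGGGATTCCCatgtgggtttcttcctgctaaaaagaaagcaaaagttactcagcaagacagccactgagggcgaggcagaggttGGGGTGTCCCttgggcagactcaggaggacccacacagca
The first match began within 11 bp of the summit in each list, and the second began 84 bp to the right of the first. Another match, GGGGAATTCC, was 625 bp to the left of the first and far from any summit. The summit window also held the AP-1 motif TGANTCA.

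The other 2 Traf2 sites were weak and absent from aged control. The promoter had a fold enrichment of 3.58 in adult and 3.49 in aged blocked. A site in intron 7, at +19617 bp in adult, had 3.01 and 2.87. Neither held a match to the consensus. Among adult peaks of their respective deciles of fold enrichment, 29.0% and 17.5% overlapped a peak of aged control, so that absence there was the more common outcome for adult peaks of this strength.

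Traf3 encodes the adaptor that presents NIK to the cIAPs. Its promoter was bound in all 3 lists (adult peak chr12:111165832-111167051, gene on the plus strand, over the start and the first exon outside the coding part), where it also overlaps an intron of the noncoding 4930595D18Rik. The fold enrichment was 8.94 in adult, 7.32 in aged control and 7.49 in aged blocked, the narrowest range of the 4 strong sites. In aged blocked the region was split into a main peak and a weaker peak of 3.14 at +504 bp. Windows of 30 bases around its 2 matches are shown, because they stand on either side of the start, at -6 and +92 bp (chr12:111166350-111166379 and chr12:111166448-111166477, forward strand).
Traf3 match 1: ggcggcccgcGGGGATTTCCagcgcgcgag
Traf3 match 2: cagcccagcaGGGACTTTCCagccggcggc
The first decamer was GGGGATTTCC and the second GGGACTTTCC, the decamer that Traf2 intron 4 holds in duplicate. The summits of adult and aged control lay nearer to the second, and that of aged blocked nearer to the first. Of the 9 members with an entry among 32851 RefSeq promoters (250 bp before to 50 bp after the start), only Traf3 had the consensus in its promoter window, as did 4.51% of all these promoters. A further peak, at -6341 bp from the start of Traf3 in a noncoding exon of 4930595D18Rik, was called in aged blocked alone, with a fold enrichment of 3.98 and no match. In its decile, 89.4% of aged blocked peaks overlapped an adult peak and 60.9% one of aged control, so that absence from these lists was the less common outcome.

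Traf6 and Traf1 were each bound in 1 list, by weak peaks. Traf6, whose product is a ubiquitin ligase used by interleukin-1 and interleukin-17 receptors, had an adult peak in intron 1 at +964 bp (chr2:101679215-101679554). Its fold enrichment was 2.68, at percentile 11.8, and its −log10 q was 4.95, at percentile 4.99. The nearest peak was 1086658 bp away in aged control (Gm13872) and 449637 bp away in aged blocked (Ldlrad3). Despite its low value the peak held a match, and its sequence is shown for that reason (chr2:101679328-101679397).
Traf6 intron 1: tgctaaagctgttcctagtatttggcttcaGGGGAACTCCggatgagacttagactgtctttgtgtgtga
Of the adult peaks in this decile, 12.5% overlapped a peak of aged control and 30.3% one of aged blocked. Traf6 therefore shared the outcome of most adult peaks of its strength.

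Traf1 encodes a TRAF without the ring domain of the others. Its peak, 15502 bp upstream of the start, was in the aged blocked list alone (chr2:34977106-34977443, fold enrichment 3.23, percentile 33.6). The closest peaks in adult and aged control were 189342 and 189234 bp from the Traf1 start, nearest to Hspa5. The peak had no match to the consensus, and it counted as a Traf1 peak only among curated transcripts. With predicted transcripts added, its nearest start was that of Gm46733, 14571 bp away.

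The cIAP genes Birc2 and Birc3 are neighbours on chromosome 9, and the peaks at their starts lay about 36 kb apart, so each is also within 50 kb of the other gene. Both were bound at the promoter in every list. Birc3 encodes cIAP2, a ubiquitin ligase that also protects cells from death. The Birc3 peak (adult chr9:7872705-7873354, on the minus strand, in the exon outside the coding part) had a fold enrichment of 13.2 in adult, 6.32 in aged control and 14.3 in aged blocked. Aged control had less than either of the other lists, which were close to each other.

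Among the peaks shared by lists, Birc3 stood near both ends of the scale. The ratio of aged control to adult was 0.478, at percentile 2.31 of 3879 shared peaks and percentile 6.51 within the strongest adult decile. The ratio of aged blocked to aged control was 2.25, at percentile 99.7 of 3612 shared peaks and 99.9 of its decile. Both ratios have aged control in common, so they are not independent of each other. Ranked by −log10 q in place of fold enrichment, the aged control peak stood at percentile 94.9 and not 86.8. Windows around the 2 matches are shown because they fall in the transcribed part, at +151 and +90 bp (chr9:7873005-7873034 and chr9:7873066-7873095, forward strand).
Birc3 match 1: ccagggctccGGGGAACTCCagggtgaaaa
Birc3 match 2: caccctggctGGGGATTTCCgtggctcttc
The decamers, GGGGAACTCC and GGGGATTTCC, began 61 bp apart, with the summits of all lists between their starts. The first is the decamer of the Traf6 peak, and the second that of Traf3.

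Birc2, which encodes cIAP1, was the weakest of the genes bound at the promoter in all lists. The fold enrichment was 4.95 in adult, 3.18 in aged control and 3.28 in aged blocked (adult peak chr9:7836757-7837322). Adult was above both aged lists, whose ratios to adult were 0.643 and 0.662. The peak held no match to the consensus, the only one of the 6 sites present in all lists without one, nor did it hold a looser motif that fixes only the outer GGG and CC of the decamer. Its neighbour Birc3 thus differed from it in strength, in sequence and in the order of the 3 lists.

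Map3k14 encodes NIK, the kinase that TRAF2, TRAF3 and the cIAPs keep low. It was bound in every list, but at 2 sites of which only adult had both. The promoter site (adult chr11:103267546-103268048) had a fold enrichment of 4.0 in adult and 3.15 in aged blocked, without a peak in aged control. The site about 8.9 kb upstream (adult chr11:103276112-103276566) had 3.47 in adult and 3.36 in aged control, without a peak in aged blocked. The aged lists therefore each kept a different one of the adult sites.

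Both absences concern peaks at percentiles from 30.6 to 61.2 of their lists. Among peaks in the decile of the promoter peak, 54.5% of adult and 36.5% of aged blocked peaks overlapped aged control. Among those in the decile of the upstream peak, 49.6% of adult and 80.8% of aged control peaks overlapped aged blocked. The sites are shown next to each other because only the upstream one holds the consensus (chr11:103267758-103267818 and chr11:103276369-103276438, forward strand).
Map3k14 promoter: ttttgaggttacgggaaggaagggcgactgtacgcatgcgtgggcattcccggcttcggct
Map3k14 upstream: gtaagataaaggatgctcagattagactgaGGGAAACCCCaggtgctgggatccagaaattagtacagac
The upstream decamer, GGGAAACCCC, began 19 bp from the adult summit and 6 bp from that of aged control.

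Of the IκB kinase genes, Ikbke was bound strongly in every list, Ikbkb in 1 list and Chuk in none. Ikbke encodes IKKε, a kinase related to TBK1 that acts in antiviral and NF-κB signalling. Its peak was 601 to 706 bp upstream of the start (adult chr1:131279737-131280591, intergenic). The fold enrichment was 9.22 in adult, 7.68 in aged control and 11.8 in aged blocked. Aged control was the lowest, at a ratio of 0.833 to adult, close to the median of all shared peaks, and aged blocked was above it by a ratio of 1.53, at percentile 90.8. The sequence is shown because its single consensus match lies at the summit in all lists (chr1:131280280-131280349, forward strand).
Ikbke upstream: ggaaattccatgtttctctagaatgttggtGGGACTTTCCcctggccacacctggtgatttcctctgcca
The decamer GGGACTTTCC, shared with Traf2 and Traf3, began 4 bp to the left of the adult summit, 3 bp to the left of that of aged control and 10 bp to the right of that of aged blocked.

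Ikbkb encodes IKKβ, the main kinase of the canonical pathway. It had 1 peak, 5994 bp upstream of the start, in aged blocked alone (chr8:22712426-22712728, fold enrichment 3.21, percentile 32.9). In adult and aged control the closest peak was 77664 and 77696 bp from the start, nearest to Ap3m2. Of aged blocked peaks in the same decile, which is also that of the Traf1 peak, 78.4% overlapped an adult peak and 36.5% a peak of aged control. Absence from adult was thus the less common outcome at this strength, and absence from aged control the more common one. The match, GGGGAATTCC on the minus strand, lay at the summit (chr8:22712536-22712605, forward strand).
Ikbkb upstream: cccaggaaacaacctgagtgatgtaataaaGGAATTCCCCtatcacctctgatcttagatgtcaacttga

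Chuk, which encodes IKKα, the kinase of the non-canonical pathway downstream of NIK, had no nearest peak in any list. The closest peaks to its start were 37884 bp away in adult, 277287 bp in aged control and 216741 bp in aged blocked. Their nearest genes were Erlin1, Scd1 and Dnmbp. Map3k14 was thus bound in every list, though no single site of it was in all of them, and Chuk in none. Having no nearest peak was the common outcome, as only 23.1%, 12.9% and 17.4% of protein-coding genes had one in adult, aged control and aged blocked.

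**Figure D2:**
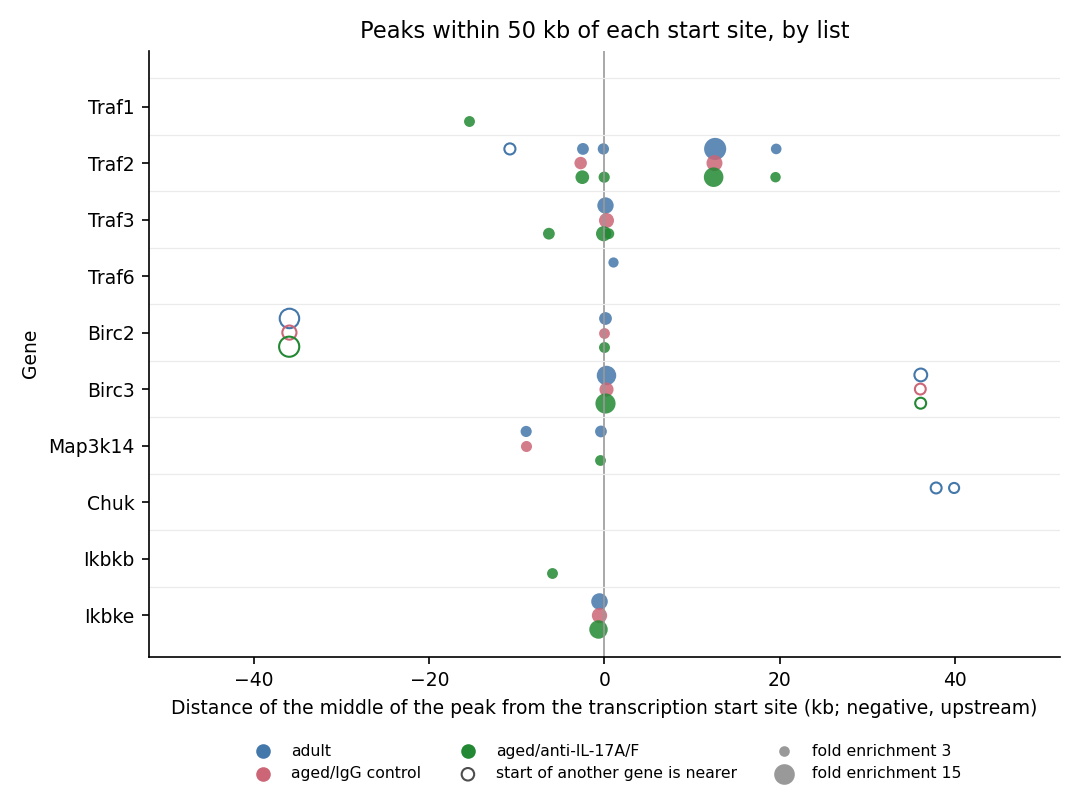
Distance of each peak from the transcription start site (horizontal axis, kb, negative upstream) for the 10 genes (vertical axis), with the lists in blue (adult), red (aged control) and green (aged blocked); the area of a point grows with fold enrichment, and open circles are peaks whose nearest start is another gene's. The strong peaks of Traf3, Birc3 and Ikbke lie within 1 kb of the start, that of Traf2 at +12646 bp in adult, and Chuk has only the open circles of Erlin1.

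Within 50 kb of a start, whatever the nearest gene, 8, 6 and 8 of the 10 genes had a peak in adult, aged control and aged blocked. The share of all protein-coding genes was 43.6%, 27.6% and 35.1%. This wider window added 3 adult peaks and none in the aged lists. They were 2 Erlin1 peaks 37884 and 39935 bp from the Chuk start, and an Edf1 peak at -10795 bp from the Traf2 start. As the map of peaks around each start shows, 7 of the 14 sites were within 1 kb of a start. These held 7 of 11 member peaks in adult, 4 of 7 in aged control and 7 of 13 in aged blocked, where 36.9%, 33.1% and 33.7% of all peaks were that close to a start.

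The comparison of adult with aged control addresses ageing, but adult mice were untreated and aged control mice had IgG injections, so age and injection cannot be told apart. Of the 11 adult member peaks, 7 overlapped a peak of aged control by at least 1 bp, as did 45.5% of all adult peaks, and all 7 aged control peaks overlapped an adult one, as did 93.3% of that list. In aged blocked, 7 of 13 overlapped aged control and 10 of 13 adult, against 59.9% and 85.6% of that list. At the 7 shared peaks the ratio of aged control to adult had a median of 0.819, and over all 3879 it was 0.813. The single sites were spread widely around this, from percentile 2.31 (Birc3) to 90.9 (Traf2 upstream) of all shared peaks, and the 4 in the strongest adult decile compare with a median of 0.704 there. A ratio at least 1.5-fold lower was found at 3 of the 7 (Traf2 intron 4, Birc3 and Birc2), against 22.2% of all shared peaks. The share was 41.7% in the strongest adult decile, which held Traf2 intron 4, Birc3, Traf3 and Ikbke but not Birc2. None of the 7 was 1.5-fold higher, against 1.08% of all.

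The comparison of the aged lists addresses the blockade of IL-17A and IL-17F. Of the 7 aged control member peaks, 6 overlapped a peak of aged blocked, as did 86.6% of that list. The ratio of aged blocked to aged control was above 1 at each of the 6 compared sites, between 1.02 and 2.25, with a median of 1.39, where all 3612 shared peaks had a median of 1.10. It was at least 1.5-fold higher at Birc3, Traf2 intron 4 and Ikbke, 3 of 6, against 10.5% of all shared peaks. The share was 5.29% in the strongest decile of aged control, which held Traf2 intron 4, Ikbke and Traf3 but not the other sites. None of the 6 was 1.5-fold lower, against 1.97%. In contrast, Traf3 (1.02) and Birc2 (1.03) were nearly equal in the aged lists. With 1 pool per condition, the variation between mice behind these ratios cannot be given.

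**Figure D3:**
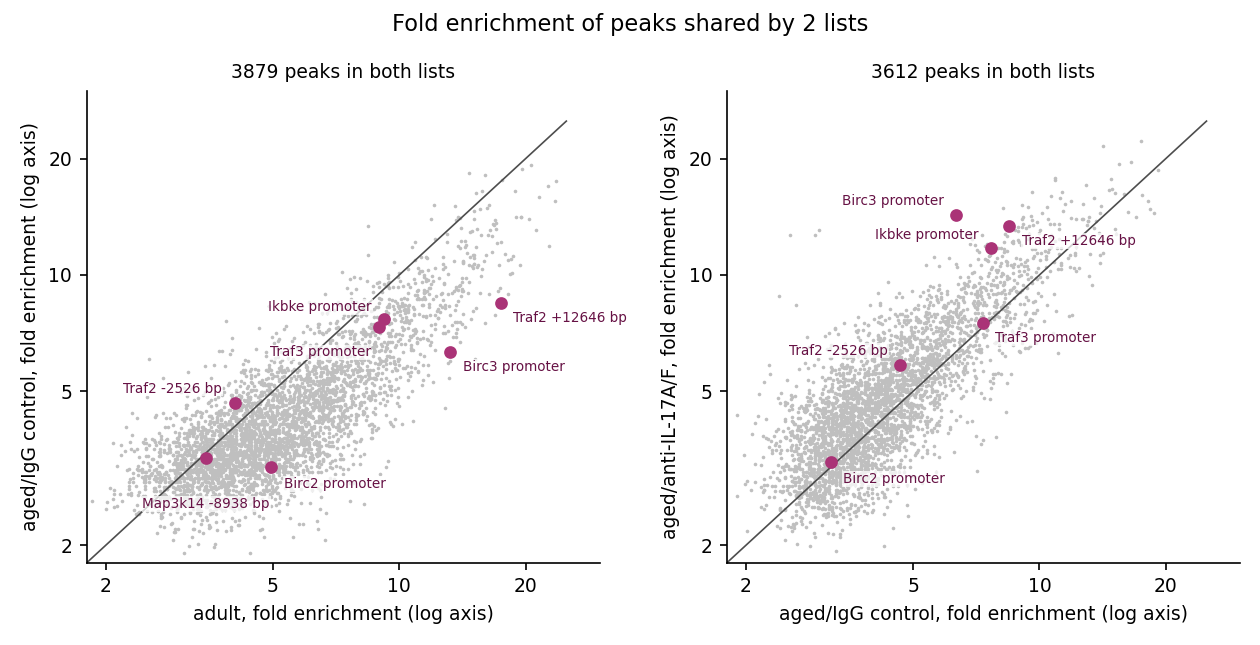
Fold enrichment of peaks that overlap between 2 lists, both axes logarithmic; grey points are all shared peaks, with adult on the horizontal and aged control on the vertical axis (left, 3879 peaks) and aged control on the horizontal and aged blocked on the vertical axis (right, 3612 peaks); purple points are the sites of the 10 genes and the line marks equal values. Birc3 and Traf2 +12646 bp lie well below the line on the left (ratios 0.478 and 0.485) and above it on the right (2.25 and 1.58).

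Between adult and aged blocked, 9 of the 11 adult member peaks overlapped, as did 60.4% of all adult peaks. The median ratio at these 9 was 0.952, and over all 5146 shared peaks it was 0.902. The only site past 1.5-fold was Birc2, which was lower in aged blocked, as 11.8% of all shared peaks were. None was higher by that margin, against 2.22%. These directions rest on the assignment of the adult list. The study's own adult annotation uses that same list and its peak names, so it cannot check the assignment.

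Over the 6 sites present in all lists, aged control was the lowest at 5, all but Traf2 2.5 kb upstream. Of all 3502 adult peaks that overlap both other lists, 58.2% were lowest in aged control, and 69.8% of those in the strongest adult decile were. Adult was the highest at 3 of the 6 sites (Traf2 intron 4, Traf3 and Birc2) and aged blocked at the other 3 (Birc3, Ikbke and Traf2 upstream). The share of all peaks highest in each list is not given here, so nothing is read from this split. The count of 5 of 6 holds under either assignment of these lists.

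The NF-κB consensus was found within 100 bp of the summit in 7 of 11 member peaks of adult, 6 of 7 of aged control and 6 of 13 of aged blocked. The share over all peaks was 28.5%, 37.8% and 34.9%, and in windows 2000 bp to either side of the summits it was 2.18%, 1.95% and 2.26%. In the strongest decile, to which many member peaks belonged, it was 61%, 63% and 62.7%. Matches in the plural were found in 4 peaks of each list, those of Birc3, Traf3, Traf2 intron 4 and Traf2 upstream, where 5.76%, 8.01% and 7.22% of all peaks had 2 or more. The share of member peaks with a match was above that of all peaks in each list, and below that of the strongest decile in aged blocked.

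In all, 8 of the 14 sites held 13 matches. GGGACTTTCC accounted for 4 of these, with 2 at Traf2 intron 4 and 1 each at Traf3 and Ikbke. It was within 100 bp of the summit in 2.59%, 3.86% and 3.62% of all peaks of the 3 lists. The looser motif with only the outer GGG and CC fixed was in 10 of 11, 6 of 7 and 11 of 13 member peaks, but also in 67.9%, 72.8% and 70.3% of all peaks. The AP-1 motif TGANTCA was in 1, 1 and 2 member peaks, against 13.2%, 14.1% and 14.4% of all.

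**Figure D4:**
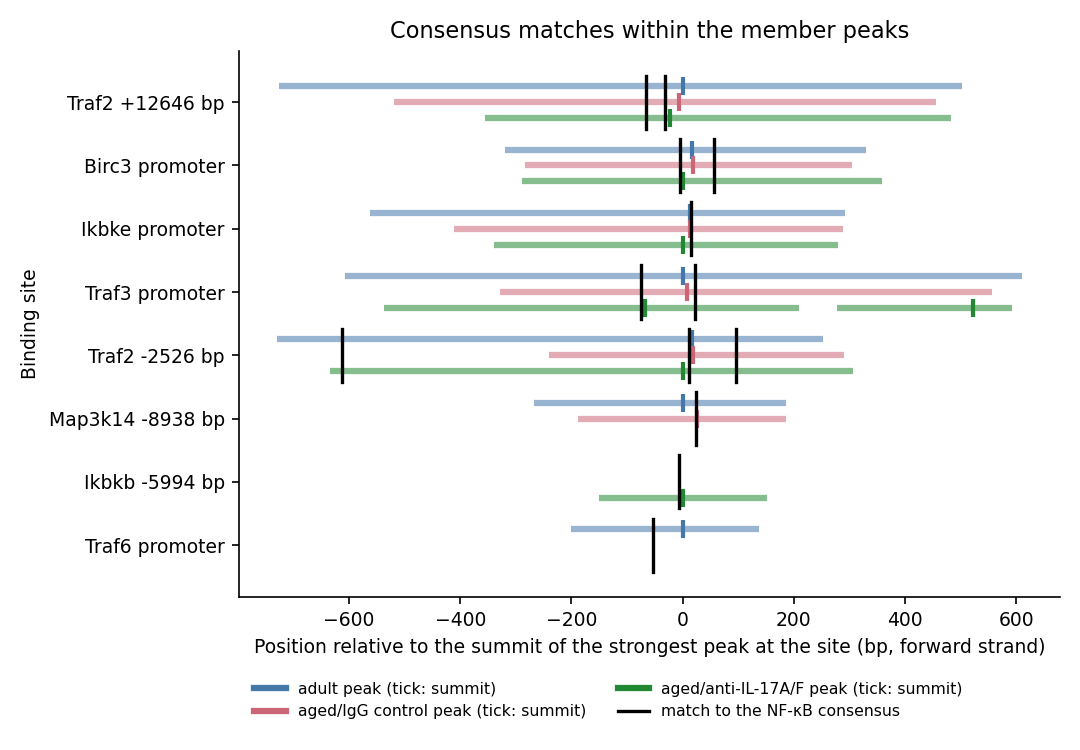
Extent of the peaks (coloured bars, with a tick at the summit) and matches to the NF-κB consensus (black lines) at the 8 sites with a match (vertical axis), as distance from the summit of the strongest peak at each site (horizontal axis, bp along the forward strand). At Ikbke, Ikbkb and Traf2 -2526 bp a match lies at the summit, at Traf2 +12646 bp, Birc3 and Traf3 a pair of matches lies around or beside it, and the match 625 bp from the others at Traf2 -2526 bp is the only one far from every summit.

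Genes whose strongest peaks had percentiles most like those of Traf2 (99.7, 94.9 and 99.0 in adult, aged control and aged blocked) were Insyn2b, Lrrfip2 and Abcg1. Likeness was measured as the distance between the 3 percentiles, over 2387 genes bound in all lists. The distances were 0.735, 1.10 and 1.40 percentile units.

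Of 31 other genes that act around these proteins, 11 had a nearest peak in adult, 5 in aged control and 8 in aged blocked, where 23.1%, 12.9% and 17.4% of all protein-coding genes had one. With lists of equal numbers of peaks the counts were 6, 5 and 6, against 13.1%, 12.9% and 13.1% of all protein-coding genes. Tbk1, Tank, Map3k7 and Tnfrsf11a were bound in all lists. Tbk1, the kinase most related to IKKε, had a fold enrichment of 3.80, 3.84 and 5.50 in the order adult, aged control, aged blocked. Tank, a TRAF-binding scaffold of TBK1 and IKKε, had 7.23, 4.27 and 7.08 at its promoter, and a distant site, at -237180 bp in adult, had 8.82, 8.24 and 6.89. At 2 further Tank sites, at -11037 and -9230 bp in adult, the values were 3.47 and 3.81 in adult and 3.21 and 3.20 in aged control, without a peak in aged blocked. Map3k7, which encodes the kinase TAK1 that activates the IκB kinases, had 11.7, 6.77 and 9.87 at its promoter, and a further site at +185221 bp in adult had 9.98, 7.04 and 8.24. Tnfrsf11a, the receptor RANK, had 6.31, 5.69 and 6.53 at a site about 32 kb upstream. Map3k7 at +91760 bp and Tnfrsf11a at -111 bp each had a further weak peak in adult alone, of 3.01 and 2.66.

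The remaining bound genes of that list were present in fewer lists. Traf5, Ube2n, Tnfrsf1a and Tnfrsf1b had peaks in adult and aged blocked, at fold enrichments from 2.78 to 4.38. Tab3 was bound in adult alone, at 3.33. For 3 further genes, overlapping peaks were assigned to different genes in different lists. Map3k8, a kinase that also feeds into NF-κB, had a strong adult peak of 10.2 at -285 bp with a match, and the overlapping peaks of 8.29 in aged control and 12.8 in aged blocked were nearest to 4833419F23Rik. Traf3ip2, whose product is the Act1 adaptor of the interleukin-17 receptor, had an adult peak of 3.18, and the overlapping peak of aged control, at 3.13, was nearest to Gm16364, whereas aged blocked had no overlapping peak. Rnf31, a subunit of the linear ubiquitin ligase, had a peak of 3.70 in aged control, and the overlapping peaks of adult and aged blocked, at 7.90 and 6.89, were nearest to Psme2. None of the member peaks of the 10 genes overlapped a peak assigned to another gene. The ligands' receptors Cd40, Ltbr and Tnfrsf12a and the regulatory IκB kinase subunit Ikbkg were among the genes with no peak in any list.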

How the data were processed

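Epidermal cells of 3 conditions (4 mice each) were profiled by p65 ChIP–seq. The authors trimmed reads with Trimmomatic 0.36, aligned them to mm10, merged and deduplicated the mice of a condition, downsampled each pool to an equal number of reads and ran MACS2 on it with a q threshold of 0.01. Whether the 3 inputs, not analysed here, entered the calling is not stated, so the local background in the fold enrichment may be that of the input or of the ChIP pool itself. The deposited lists give each peak's fold enrichment (a ratio to local background), the −log10 of its p-value and q-value, a score that restates the −log10 q, and the summit. The authors' pooling removes the variation between mice, and a weak peak can miss the threshold in 1 list with little difference in signal.

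Here, peaks were assigned to the nearest curated start of RefSeq GRCm38.p6 outside chromosome Y, and overlaps needed 1 bp. All lists of genes and all members were chosen with earlier results of these data known. Named genes were the members, listed pathway genes with a peak, genes nearest to peaks within 50 kb of a member, and the 3 genes most like the top member; further names (genes nearest to the closest peak, to overlapping peaks or under predicted transcripts, and listed genes without a peak) were added after values were seen. Assignment, overlap and motif steps were tested on simulated data. Tools were Python 3.11.15, pandas 2.3.3, numpy 2.4.6, pysam 0.24.0, samtools 1.23.1 and matplotlib 3.10.9. Alternatives covered thresholds, overlap, assignment, motif, window and ranking.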

Additional observations from a re-analysis of the deposited data

How the results depend on the processing

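No paired analysis was possible because each condition is 1 pooled list with no replicate numbers. With lists cut to equal numbers of peaks, adult kept 7 member peaks and not 11, and the other pathway genes bound in adult were 6 and not 11. Under the looser motif (only the outer GGG and CC fixed), 11 and not 6 member peaks of aged blocked had a match. Ranked by −log10 q or −log10 p, the median percentile of the strongest member peaks was 92.9 in adult, 91.4 in aged control and 75.3 in aged blocked. The cause of these shifts beyond the smaller lists and the looser motif was not tested. The other 129 group-level values were classed as unchanged, but some counts among them shifted by several peaks or genes. Aged blocked had 9 and not 13 member peaks at a −log10 q of at least 10. With equal numbers of peaks, 6 and not 9 adult member peaks overlapped aged blocked. Under the looser motif, 10 and not 7 adult member peaks had a match. With the adult and aged blocked lists exchanged, the median ratio of aged blocked to adult was 1.12 and not 0.952. Aged control then stayed lower than both (0.797 of adult, and aged blocked at 1.22 of aged control). Genes bound in 1 list depended on the threshold and, for Traf1, also on the assignment. Traf6 was lost at a −log10 q of at least 5, and Traf1 and Ikbkb at one of at least 10, which left the same 6 genes in each list, against 16.8%, 9.66% and 13.0% of all genes. Traf1 was also lost with predicted transcripts or within 10000 bp of the start, and with equal numbers Map3k14 was lost in aged blocked and Traf6 in adult. This exchange, and all alternatives for ratios and for other pathway genes, were chosen after seeing the data. Ratios compare pools, and no depth or error per peak is known.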

Other observations

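The member peaks were somewhat richer in G and C than the lists as a whole. Within 100 bp of the summit, the median GC content was 57.2% in adult, 58.7% in aged control and 58.2% in aged blocked, against 54.7%, 53.7% and 53.7% over all peaks. The decamers other than GGGACTTTCC each occurred at 1 or 2 member sites. GGGACACCCC, the second match upstream of Traf2, was the rarest in these lists, within 100 bp of the summit in 18 adult, 3 aged control and 7 aged blocked peaks, whereas GGGGATTTCC, found at Birc3 and Traf3, was in 183, 141 and 185 peaks.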
